A study of Mus musculus and Homo sapiens with 12 samples.

Results

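The threonine tRNAs of mouse and human cells were followed in 12 tRNA charging libraries, by summing every counted gene whose name begins with tRNA-Thr. The mouse files held 14 such genes of 224 tRNA genes, of which 7 are tRNA-Thr-AGT, 4 tRNA-Thr-CGT and 3 tRNA-Thr-TGT, named by their anticodons and called AGT, CGT and TGT below. The human files held 17 of 260, of which 6 carry AGT, 5 CGT and 6 TGT. Genes that share an anticodon form an isoacceptor, and these are 3 of 51 isoacceptors in the mouse files and 3 of 49 in the human files. Mouse embryonic fibroblasts (MEF) were kept in high-glucose DMEM with dialyzed serum, with 100 nM halofuginone (HF) for 6 h as the labels state or without it, and the text of the study gives a shorter treatment time. NTERT cells, which are immortalized human keratinocytes, were left untreated or were given UV-B at 400 J/m2 and then left to recover for 3 h (UVB). Each of the 4 groups held 3 libraries. The study describes its replicates as biological, the labels do not say which cultures they came from, and each cell type stands here for a single line.

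Threonyl-tRNA synthetase attaches threonine to the terminal adenosine of the CCA tail that all mature tRNAs carry, and it reads the anticodon of its tRNA. The first anticodon base of the AGT isoacceptor is converted to inosine, which lets this tRNA read several threonine codons, and the base next to the anticodon of threonine tRNAs carries the bulky t6A modification. HF blocks the prolyl site of the bifunctional glutamyl-prolyl-tRNA synthetase and is not known as an inhibitor of threonine charging, so the threonine tRNAs serve here as tRNAs outside the target of the drug. In the assay, periodate oxidizes the terminal A of uncharged tRNAs, which is then lost at high pH, while the amino acid protects that of charged ones. A read that ends in CCA is thus counted as charged and a read that ends in CC as uncharged, and percent charged is the first as a share of both. Reads with neither end make up the rest of all reads on a gene.

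To show how far apart these tRNAs are in sequence, 5 of the stretches of the human genome (hg38) that fold as a tRNA with a threonine anticodon are given, with the anticodon in capitals. A search of both strands by stem pairing found 19 such places with 16 different sequences of 72 to 74 bases, and 8 of the places lie on chromosome 6. They could not be paired with the names of the counted genes. The first sequence occurs at 3 places and lies at chr17:8187160-8187233 (+). The second lies at chr6:28648207-28648280 (-), overlapping an exon of a long noncoding RNA gene on the opposite strand, and the last lies at chr6:28474552-28474625 (-). The sequences between them lie at chr16:14285893-14285964 (+) and chr14:20681690-20681762 (+). Other than the second, these places overlap no GENCODE v44 gene.
AGT, chromosome 17: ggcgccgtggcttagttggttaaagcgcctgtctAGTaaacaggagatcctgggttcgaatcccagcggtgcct
CGT, chromosome 6: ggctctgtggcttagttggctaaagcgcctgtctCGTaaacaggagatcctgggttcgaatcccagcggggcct
CGT, chromosome 16: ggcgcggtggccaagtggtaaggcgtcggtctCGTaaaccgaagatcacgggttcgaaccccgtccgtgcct
TGT, chromosome 14: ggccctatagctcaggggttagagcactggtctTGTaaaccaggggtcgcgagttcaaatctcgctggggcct
TGT, chromosome 6: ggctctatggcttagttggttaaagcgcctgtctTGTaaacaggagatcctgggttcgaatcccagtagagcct

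Sequences with one anticodon were not always closest to each other. The CGT sequence of chromosome 6 was 5 edits (substitutions, insertions or deletions) from the AGT sequence shown but 18 from the CGT sequence of chromosome 16. The TGT sequence of chromosome 6 was likewise 7 edits from the AGT sequence and 21 from the TGT sequence of chromosome 14. Within the AGT anticodon, the 6 different sequences were 1 to 6 edits apart. Reads on such close copies may be split among genes by the alignment, so values of single genes are less certain than those of an isoacceptor, and a CGT or TGT gene of the AGT kind may share reads with AGT genes. Because the sequences found were of nearly one length, reads per 1000000 tRNA reads (RPM) were compared between isoacceptors without a length correction.

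The libraries held 617693 to 6286863 tRNA reads in MEF and 253693 to 1992671 in NTERT. Of the tRNA reads, 86.9 to 96.6% carried an end in MEF and 47.2 to 62.8% in NTERT. Charging of the summed proline tRNAs was 49.6, 42.1 and 55.5% in control replicates 1 to 3 and 29.9, 16.0 and 8.18% in the HF replicates. These proline values also helped to infer which column of the files held the charged reads. They are therefore not an independent check of the HF label. In MEF the treatment groups also differed in the share of all reads that fell on tRNA genes, at 3.43 to 9.52% in controls and 19.1 to 27.8% with HF, and the part of this difference in any result below was not tested.

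In untreated MEF, the CGT isoacceptor had the highest mean charging and TGT the lowest, and the 3 means lay within one SD of each other. For AGT, control replicates 1, 2 and 3 were 61.6, 53.8 and 74.8% charged, a mean of 63.4 ± 10.6% (SD, n = 3). CGT was charged to 73.0, 56.6 and 78.6%, or 69.4 ± 11.4% (SD, n = 3). TGT was charged to 68.9, 46.4 and 70.5%, or 62.0 ± 13.5% (SD, n = 3). Replicate 2 was the lowest for all 3, and it also had the lowest median over the 48 isoacceptors that averaged 50 or more such reads, at 55.7% against 71.9 and 80.7% in replicates 1 and 3. Counting error was small beside this spread, since the 95% Wilson interval of AGT in replicate 2, the thinnest of these values with 305 reads with an end, was 48.2 to 59.3%. Intervals here cover counting error only, because PCR copies of a molecule could not be told apart. Among the 48 isoacceptors, ordered by mean from the highest, CGT stood at place 24, AGT at 28 and TGT at 31.

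Under HF, charging of threonine tRNAs was higher on average but no isoacceptor passed the test. AGT was charged to 84.5, 81.2 and 67.9% in HF replicates 1, 2 and 3, a mean of 77.9 ± 8.79% (SD, n = 3). CGT was charged to 83.2, 86.4 and 72.6%, or 80.8 ± 7.23% (SD, n = 3). TGT was charged to 90.1, 81.0 and 68.9%, or 80.0 ± 10.7% (SD, n = 3). In each case HF replicate 3 fell within the range of the controls, so the groups overlapped for all 3, while 29.2% of the 48 isoacceptors had groups that did not overlap. On the scale of log2 of charged over uncharged reads, HF minus control was 1.06 (SE 0.73) for AGT, 0.90 (SE 0.73) for CGT and 1.41 (SE 0.73) for TGT, with limma adjusted p of 0.197, 0.267 and 0.129 over the 48 isoacceptors. Of those 48, 18.8% were called at an adjusted p under 0.05 and 45 were higher under HF, with a median difference of 1.21. The threonine values thus lay on both sides of that median, and with each library's median subtracted the differences were -0.30 for AGT, -0.46 for CGT and 0.05 for TGT. The threonine sum was charged to 68.5, 50.8 and 74.2% in controls and 87.6, 82.5 and 69.2% with HF, a difference of 1.18 (adjusted p = 0.144 over 21 amino acid sums by limma). Without HF replicate 3, the TGT difference was 1.91 and passed (adjusted p = 0.0423 by limma). In that fit 17 of the 48 isoacceptors were called, and TGT was the only threonine one.

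**Figure D1:**
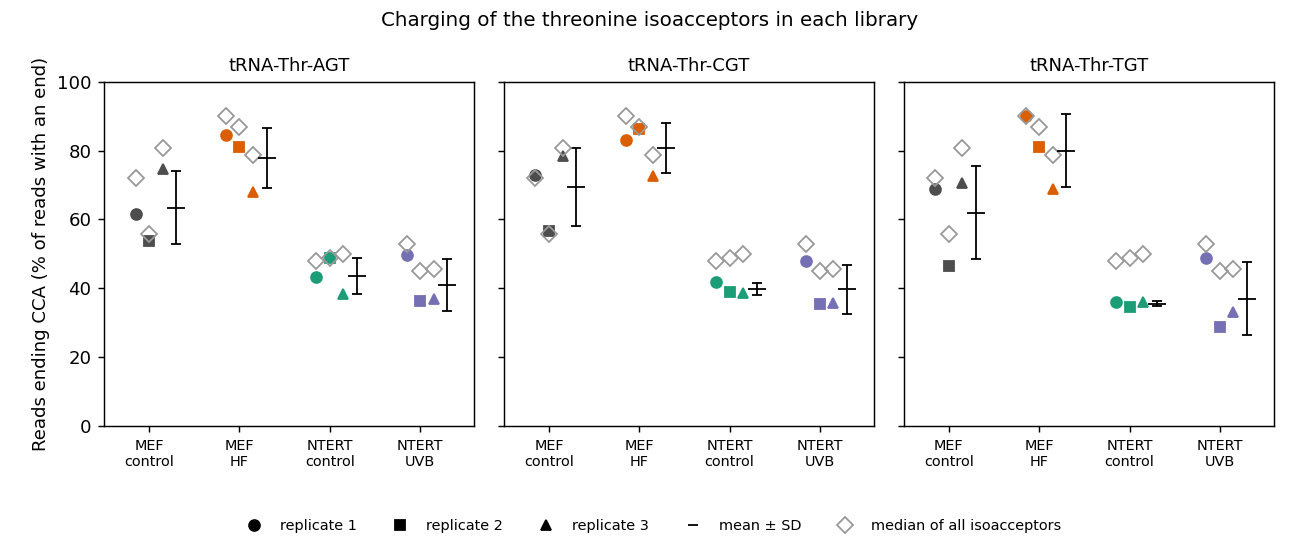
Percent charged (reads ending CCA as a share of reads with an end) of the 3 threonine isoacceptors in each of the 12 libraries, with the group mean ± SD beside the points and the median over all isoacceptors of the same library as open diamonds. The threonine values move with the library medians in MEF, and in NTERT they lie at or below them.

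In NTERT, charging of threonine tRNAs was lower than the median isoacceptor and did not differ detectably after UVB. AGT was charged to 43.3, 48.8 and 38.5% in control replicates 1, 2 and 3 and to 49.6, 36.3 and 36.96% in the UVB replicates. CGT was charged to 41.9, 38.9 and 38.7% in controls and to 48.0, 35.3 and 35.7% after UVB. TGT was charged to 36.0, 34.7 and 36.0% in controls and to 48.9, 28.8 and 33.2% after UVB. UVB replicate 1 lay above every control for all 3 isoacceptors, and UVB replicates 2 and 3 lay below every control for each of them, so the wider spread was on the treated side. That replicate also had the highest median over isoacceptors of the 6 NTERT libraries, at 52.8% against 45.0 to 49.9% in the others. The UVB minus control differences on the log2 scale were -0.15 (95% interval -0.95 to 0.64) for AGT, -0.02 (-0.75 to 0.72) for CGT and 0.06 (-0.80 to 0.93) for TGT, all with a limma adjusted p of 0.986. The threonine sum was charged to 38.6, 40.4 and 36.9% in controls and 48.9, 31.5 and 34.3% after UVB. None of the 47 isoacceptors tested was called (0%) and none had an unadjusted p under 0.05, so changes inside these intervals were not detectable. In the control group the means were 43.5 ± 5.18% for AGT, 39.8 ± 1.78% for CGT and 35.6 ± 0.77% for TGT (SD, n = 3), at places 27, 31 and 36 from the highest of 47.

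The order of the isoacceptors was compared inside each library, where differences between libraries cancel. In NTERT, AGT was charged more than TGT in 6 of 6 libraries, by 0.37 ± 0.29 on the log2 scale (SD), with a two-sided exact sign-flip permutation p of 0.0312, the smallest that 6 libraries allow, and 0.0938 after adjustment over the 6 pairs of both cell types. CGT was charged more than TGT in 5 of 6 NTERT libraries (difference 0.22 ± 0.17), and AGT more than CGT in 5 of 6 (0.15 ± 0.21), both with an adjusted exact permutation p of 0.0938. In MEF the order was another, with AGT below CGT in 5 of 6 libraries (-0.33 ± 0.31, adjusted exact permutation p = 0.0938). AGT minus TGT was -0.09 ± 0.45 in MEF and CGT minus TGT was 0.24 ± 0.57, with adjusted exact permutation p of 0.594 and 0.487. No pair passed 0.05 after adjustment. The treatments did not move these differences detectably, since the change was -0.51 to 0.16 in MEF and -0.22 to -0.08 in NTERT, and every adjusted exact permutation p was 0.8 where 3 against 3 libraries cannot go below 0.1 before adjustment. The differences between isoacceptors depended on the weight of single genes. With equal weight for genes, AGT minus TGT was -0.36 in MEF and 0.27 in NTERT. CGT minus TGT was then 0.01 in MEF and 0.09 in NTERT, and AGT minus CGT was -0.38 and 0.18. No pair passed in that setting either.

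Most pairs of genes within an isoacceptor did not keep one order of charging across the libraries. Exceptions were found in both cell types, and in MEF they were pairs with TGT-3-1. tRNA-Thr-TGT-3-1, the most abundant threonine gene in MEF, was charged to 65.8, 42.8 and 66.2% in controls and 89.2, 79.3 and 64.5% with HF. tRNA-Thr-TGT-2-1 was charged to 74.4, 50.8 and 78.8% in controls and 92.0, 84.6 and 82.1% with HF. It was higher than TGT-3-1 in 6 of 6 libraries, by 2.82 to 17.7 percentage points, and the gap was widest in HF replicate 3, the library with the most tRNA reads. The rarer tRNA-Thr-TGT-1-1 was also higher than TGT-3-1 in 6 of 6, by 1.13 to 28.6 percentage points. These were the only pairs of 15 within the MEF isoacceptors that went one way in every library. The remaining mouse TGT pair had no fixed order, with TGT-1-1 above TGT-2-1 in 2 of 6 libraries. In NTERT, 7 of 36 pairs kept one order in every library. They were TGT-1-1 above TGT-2-1, TGT-4-1 and TGT-6-1, TGT-4-1 below TGT-3-1 and TGT-6-1, and AGT-3-1 below AGT-1-1 and AGT-5-1. The pairs were picked out after their values were seen, and no test was run on them. The share of such pairs over all tRNA genes was not computed.

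**Figure D2:**
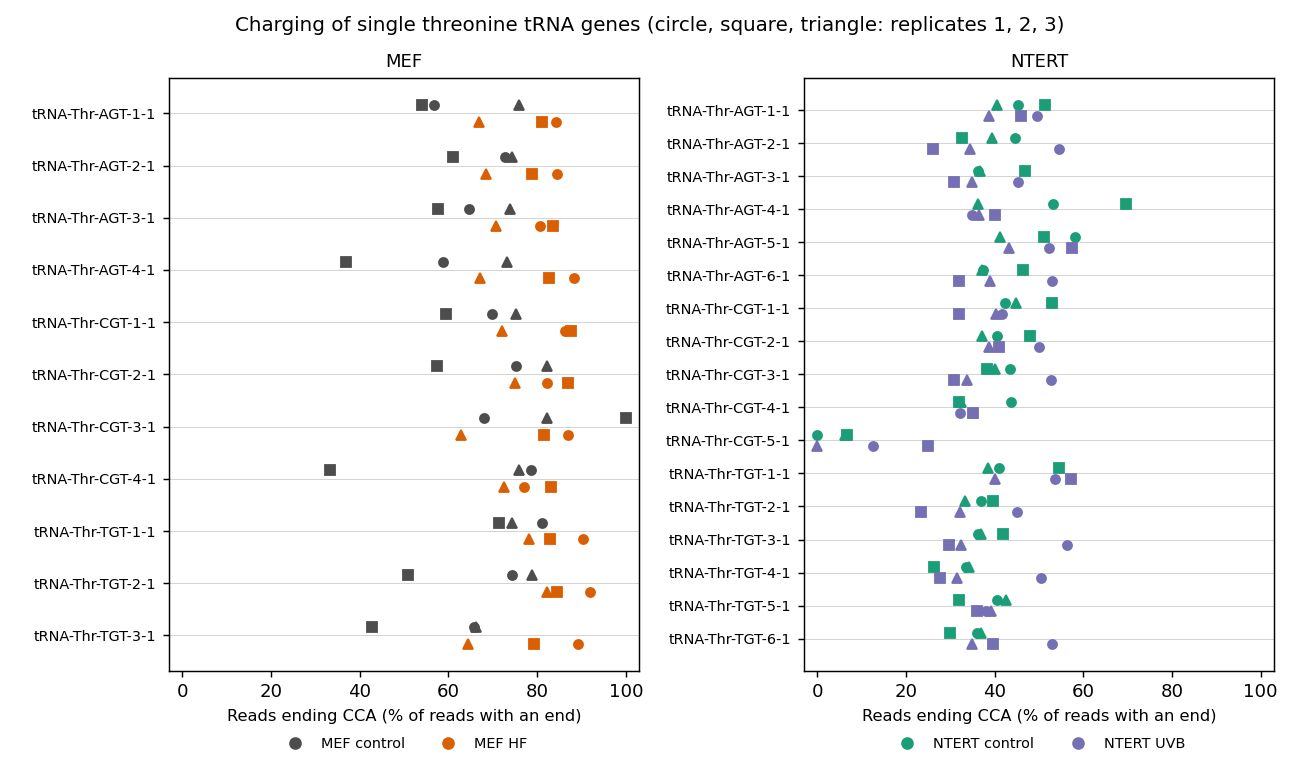
Percent charged of each threonine tRNA gene that averaged 50 or more reads with an end over the 6 libraries of its cell type, and of human CGT-5-1, which is below that minimum. Mouse TGT-3-1 lies left of TGT-2-1 in every library, and human CGT-5-1 lies between 0 and 25%, below the other CGT genes in each library.

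In MEF, 11 of the 14 threonine genes reached that minimum and 10 of the 11 were charged more on average under HF, as were 134 of all 139 genes tested. None was called, against 14.4% of the 139 genes tested. Of the 11, 2 had an unadjusted limma p under 0.05, as did 52 of the 139. The log2 differences ran from -0.58 for CGT-3-1 to 1.66 for AGT-4-1, with limma adjusted p of 0.106 to 0.465. The CGT-3-1 value rests on few reads, as few as 8 with an end in one library. The genes below the minimum were AGT-5-1, AGT-6-1 and AGT-7-1, and the last had 5 reads in HF replicate 3 and none elsewhere. In NTERT, 16 of 17 genes reached the minimum, and 7 of them were higher after UVB, as were 97 of the 168 genes tested. The log2 differences of the threonine genes ran from -0.93 for AGT-4-1 to 0.46 for TGT-6-1. None of them was called, nor was any of the 168 genes tested (0%), of which 3 had an unadjusted p under 0.05.

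The human gene below the minimum, tRNA-Thr-CGT-5-1, had the lowest percent charged of the 5 CGT genes in each of the 6 libraries, on few reads. It had 24 to 112 reads in a library, and 66.7 to 86.6% of them had neither end, a range whose lower end CGT-1-1, CGT-2-1 and CGT-4-1 also passed in single libraries. Of its 9, 15 and 16 reads with an end in control replicates 1, 2 and 3, 0, 1 and 1 ended in CCA, and of 8, 8 and 9 in the UVB replicates, 1, 2 and 0 did. The 95% Wilson interval of control replicate 3 was 1.11 to 28.3%, below the 38.7% of the whole isoacceptor in that library. Only in UVB replicate 2 did it hold the value of the isoacceptor, at 7.15 to 59.1% and 35.3%. The gap was narrowest in UVB replicate 1, with an upper limit of 47.1% against 48.0%. A share of 0 of 9 reads limits the charged share only to at most 29.9% by the same interval.

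Reads with neither end were fewer on all 3 isoacceptors in MEF treated with HF, as on most tRNAs. AGT had 3.67, 7.85 and 5.76% of reads with neither end in control replicates 1, 2 and 3 and 1.51, 2.04 and 1.09% with HF. TGT had 3.86, 7.32 and 3.42% in controls and 1.52, 1.31 and 0.91% with HF. CGT had 0.96, 3.31 and 1.72% in controls and 1.26, 0.23 and 0.99% with HF. The groups did not overlap for AGT and TGT and overlapped for CGT, where control replicate 1 was below 2 of the HF libraries, and 72.9% of the 48 isoacceptors had groups without overlap. The log2 ratio of reads with neither end to reads with an end was lower with HF, by a difference of -1.94 (SE 0.47) for AGT, -1.41 (SE 0.48) for CGT and -1.96 (SE 0.47) for TGT, with limma adjusted p of 0.000386, 0.00833 and 0.000386. The CGT call was lost without control replicate 2 (-0.95) or HF replicate 2 (-0.69). These calls are to be read against the 79.2% of isoacceptors called lower under HF, with a median difference of -1.29. With each library's median subtracted no threonine isoacceptor was called, and the differences were -0.86, -0.34 and -0.89. The sum of the threonine tRNAs fell by 1.81, the lowest value among the 21 amino acid sums, and it lost its call in the same way (-0.55, adjusted p = 0.586 by limma).

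**Figure D3:**
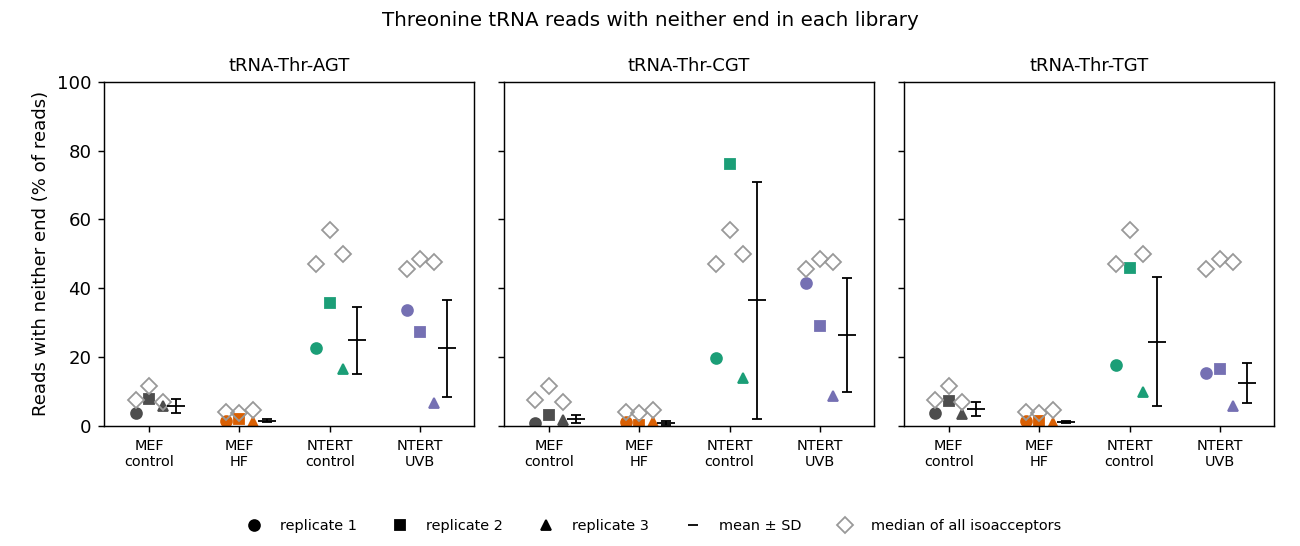
Percent of reads with neither a CCA nor a CC end for the 3 threonine isoacceptors in each library, with the group mean ± SD and the library median over all isoacceptors as open diamonds. All 3 lie below the library median in MEF, and CGT in NTERT control replicate 2, at 76.1%, lies above it.

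By gene, 8 of the 11 threonine genes tested in MEF were called lower with HF, where 44.2% of the 147 genes tested were. The largest called differences were -2.83 for CGT-4-1, -2.40 for AGT-3-1 and -2.35 for AGT-2-1, with limma adjusted p of 0.0354, 0.0269 and 0.0196. They rest on few reads with neither end. CGT-4-1 had 1, 6 and 14 such reads in control replicates 1, 2 and 3 and 1, 0 and 28 with HF, and its groups overlapped. AGT-3-1 had 5, 3 and 5 in controls and 0, 7 and 8 with HF. CGT-2-1 was at -0.38 (adjusted p = 0.641 by limma). Leaving out control replicate 2, which had the highest value for most of these genes, left 0 of the 11 called, and leaving out HF replicate 3 left 5. Among the 11 mouse genes over the minimum, TGT-1-1 kept the most reads with neither end, at 15.8 ± 3.55% in controls and 4.28 ± 0.71% with HF (SD, n = 3).

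In NTERT the threonine isoacceptors lost fewer ends than most, and one control library stood apart. AGT had 22.6, 35.6 and 16.6% of reads with neither end in control replicates 1, 2 and 3 and 33.7, 27.2 and 6.62% after UVB. CGT had 19.6, 76.1 and 13.8% in controls and 41.4, 29.0 and 8.57% after UVB. TGT had 17.8, 45.8 and 9.96% in controls and 15.3, 16.5 and 5.84% after UVB. Control replicate 2 was the highest of the 6 libraries for each of the 3, and it had the fewest tRNA reads, while replicate 3 was the lowest of its group for each of them and had the most. The control means were 24.9, 36.5 and 24.5% for AGT, CGT and TGT, where the median isoacceptor was at 50.6%. The UVB minus control differences were -0.42 (SE 0.78) for AGT, -0.74 (SE 1.25) for CGT and -1.06 (SE 0.81) for TGT, with limma adjusted p of 0.818, 0.816 and 0.724. None of 48 isoacceptors and none of 219 genes was called (0%), although 3 and 13 had an unadjusted p under 0.05. Without control replicate 2, the sum of the threonine tRNAs differed by 0.01 in place of -0.94.

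**Figure D4:**
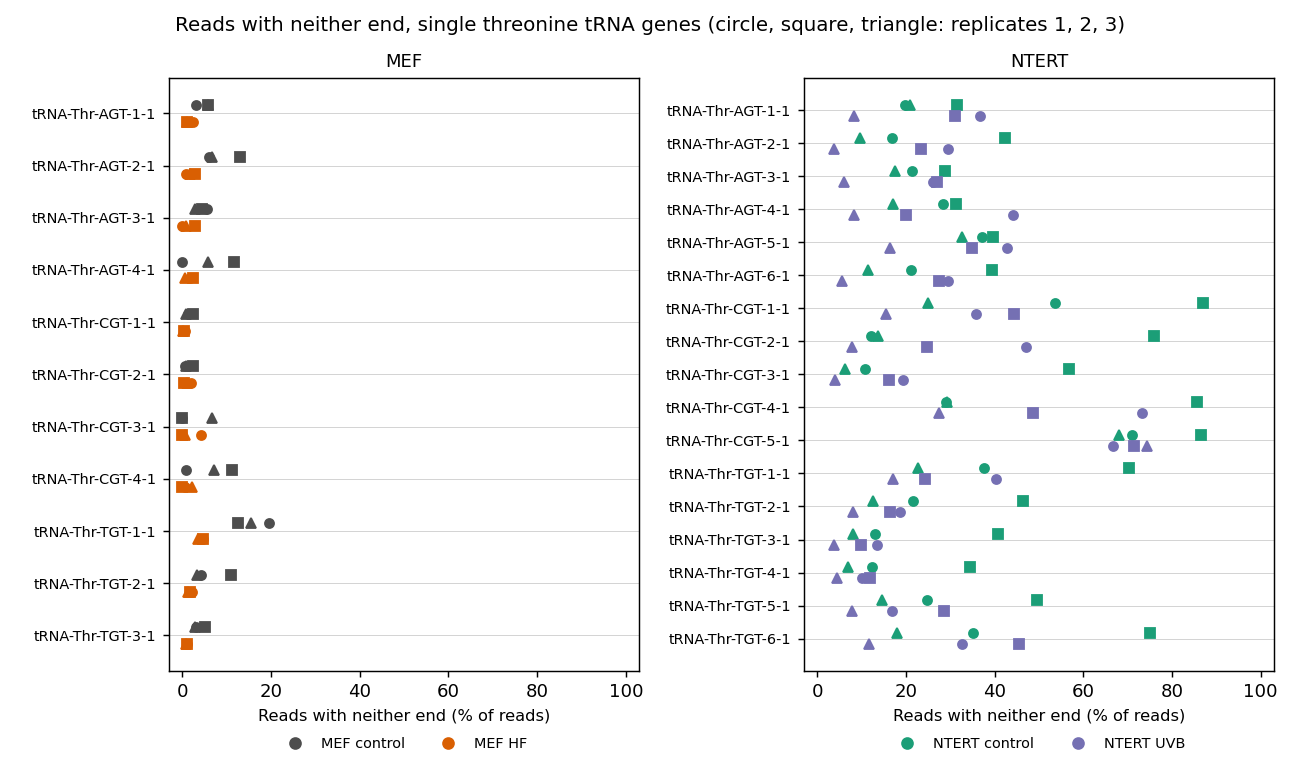
Percent of reads with neither end of each threonine tRNA gene, for the same genes as in the plot of charging by gene. In MEF the HF points lie near 0, and in NTERT the squares of control replicate 2 lie to the right for the CGT and TGT genes.

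The high value of CGT in control replicate 2 was shared by its genes. CGT-1-1, CGT-4-1 and CGT-5-1 had 87.0, 85.6 and 86.6% of reads with neither end there, against 24.9 to 71.0% in the other controls. CGT-2-1 had 76.0% there and CGT-3-1 had 56.7%. The same library had the highest share of CGT reads of the NTERT controls, at 3354 RPM against 1486 and 1338. CGT-5-1 accounted for 441 of these and for 35.9 and 25.1 in replicates 1 and 3. The AGT genes of that library had 28.8 to 42.4% of reads with neither end.

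Threonine tRNAs were a small share of the tRNA reads, and TGT was the most read of the 3 in 11 of the 12 libraries. Together they made up 0.23 ± 0.07% of tRNA reads in MEF controls, 0.38 ± 0.18% with HF, 0.83 ± 0.10% in NTERT controls and 1.15 ± 0.33% after UVB (SD, n = 3). Within the threonine reads, AGT took 19.3 to 23.9% in every library. TGT took 43.4 to 64.5% in all but NTERT control replicate 2, where it took 34.5% and CGT took 42.8%. The MEF and NTERT values come from different species, references and depths and were not tested against each other. A share of reads cannot tell apart a change in a tRNA, a change in the other tRNAs of the total and a change in capture.

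Under HF, the read share of TGT was higher and passed the test, though the call depended on the scaling and on single libraries. TGT had 1378, 1460 and 660 RPM in control replicates 1, 2 and 3 and 1576, 1486 and 3815 with HF. AGT had 543, 536 and 357 in controls and 586, 668 and 1265 with HF. CGT had 690, 784 and 502 in controls and 494, 798 and 837 with HF. The HF libraries lay above the controls for TGT and AGT and overlapped them for CGT, and 27.1% of the 48 isoacceptors had groups without overlap. HF replicate 3, the deepest library, had more than double the other HF values for TGT. After TMM scaling, which evens out the bulk of the isoacceptors between libraries, the log2 difference was 1.07 (SE 0.35, adjusted p = 0.0236) for TGT, 0.90 (SE 0.35, adjusted p = 0.0622) for AGT and 0.25 (SE 0.35, adjusted p = 0.700) for CGT by limma. The SE was pooled over all isoacceptors in this fit, so the adjusted p of TGT does not measure the spread of TGT's own replicates. In the same fit 12.5% of the 48 isoacceptors were called higher. Scaled by library totals, TGT was at 0.92 (adjusted p = 0.107 by limma), without HF replicate 3 at 0.52 (adjusted p = 0.403), and without control replicate 3 at 0.78 (adjusted p = 0.251). Without HF replicate 3, AGT was at 0.45 (adjusted p = 0.417 by limma). The TGT call also ended without control replicate 1 (1.26, adjusted p = 0.0542), control replicate 2 (1.17, adjusted p = 0.123) or HF replicate 1 (1.05, adjusted p = 0.187), and held without HF replicate 2 (1.27, adjusted p = 0.00974 by limma).

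**Figure D5:**
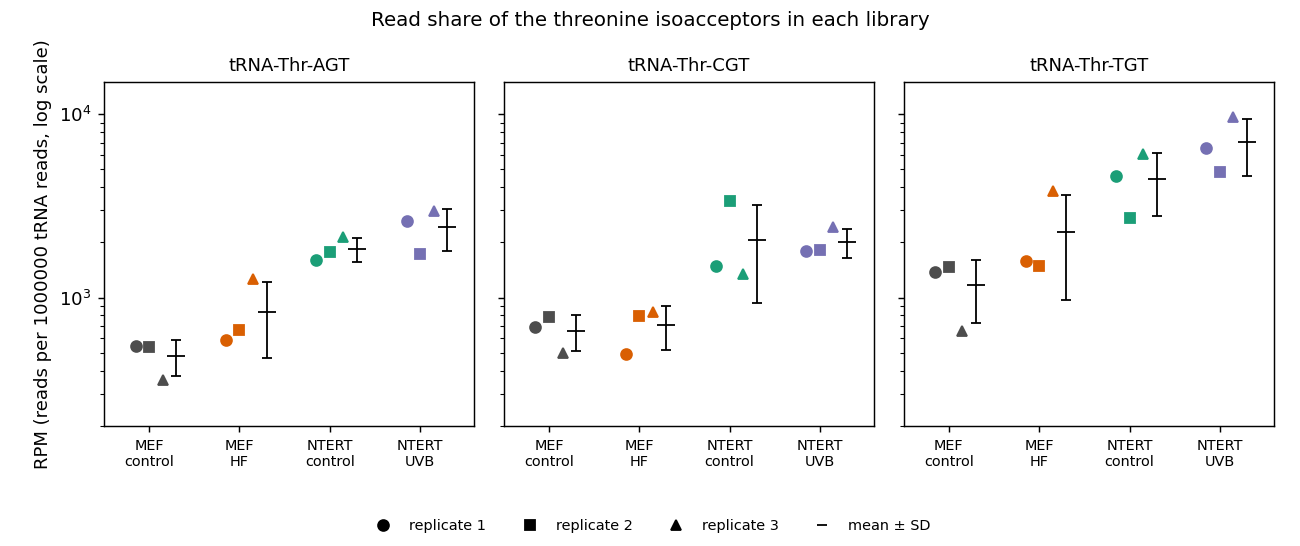
Reads per 1000000 tRNA reads (RPM, log axis) of the 3 threonine isoacceptors in each library, with the group mean ± SD. TGT is the highest of the 3 in most libraries, and HF replicate 3 lies above the other MEF libraries for each isoacceptor.

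Among the genes of MEF, 10 of 11 were at a higher share with HF, as were 67 of all 147, and 2 were called, AGT-4-1 at 1.07 and CGT-3-1 at 1.18 (adjusted p = 0.0458 and 0.0291 by limma), where 6.80% of the 147 genes were called higher. Leaving out any 1 library, or scaling by library totals, left 0 or 1 of these genes called. Both calls rest on few reads in the controls. CGT-3-1 had 25, 8 and 30 reads in control replicates 1, 2 and 3, and AGT-4-1 had 80, 43 and 170. The main TGT gene, TGT-3-1, was at 1.11 (adjusted p = 0.0642 by limma). It had 892, 934 and 422 RPM in controls and 1023, 993 and 2845 with HF. CGT-1-1 and CGT-2-1, which hold most CGT reads in MEF, were at 0.08 and -0.01. In NTERT, the differences after UVB were 0.33 for AGT, 0.04 for CGT and 0.63 for TGT, with limma adjusted p of 0.653, 0.953 and 0.546. Leaving out 1 library moved AGT between 0.07 and 0.59 and TGT between 0.27 and 0.96. AGT had 1607, 1782 and 2140 RPM in controls and 2607, 1735 and 2955 after UVB. TGT had 4593, 2704 and 6046 in controls and 6526, 4859 and 9657 after UVB. The groups overlapped for all 3, and none of 48 isoacceptors or 219 genes was called (0%), with 4 and 8 at an unadjusted p under 0.05. Of the 16 threonine genes tested, 13 were at a higher share after UVB, as were 101 of the 219 genes.

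The threonine tRNAs were set beside tRNAs that share a modification, in 2 lists that hold the threonine tRNAs themselves. Of the 8 isoacceptors whose first anticodon base is A and becomes inosine, 8 were tested in MEF and 6 were called lower for reads with neither end, with a median difference of -1.81, where 38 of all 48 (79.2%) were called lower with a median of -1.29. For charging, 2 of the 8 were called higher and 1 lower, where 6 of the 48 were called higher and 3 lower, and the median was 1.33 against 1.21. For read share the 8 had a median of 0.71 against 0.09, with 2 called higher where 6 of the 48 were. Of the 14 isoacceptors listed as t6A carriers, 13 were tested in MEF, 11 were called lower for reads with neither end (median -1.27), 1 was called higher for charging (median 1.10) and 1 higher for read share (median 0.25). Over all 48, 38 were called lower for reads with neither end, 6 higher for charging and 6 higher for read share. In NTERT no member of either list was called, and the median charging of the inosine list was 40.2% in controls against 50.8% over all isoacceptors. The isoacceptors with percent charged most like AGT over the 12 libraries were Arg-ACG, Arg-TCT and Cys-GCA, at a mean absolute difference of 6.08 to 6.85 percentage points where the median of 37 candidates was 13.5. For CGT they were Gln-TTG, Arg-ACG and Ala-TGC (3.77 to 5.03), and for TGT they were Ala-TGC, Ala-AGC and Cys-GCA (4.92 to 6.17). The 12 points share libraries and fall into 2 cell types with different charging levels, so this likeness is a description only.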

How the data were processed

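Charging was measured in 12 libraries of total RNA, oxidized with periodate, deacylated and ligated to barcoded adaptors. The authors demultiplexed the reads, trimmed them (Trim Galore in the submitters' processing notes, cutadapt in the methods), dropped pairs under 20 bases and aligned them with Bowtie2 to unique human tRNA gene sequences of GRCh38 with CCA appended. The notes also name GRCm38, and the mouse tRNA set is not given in the sources used here. The deposited values are raw read counts per gene, with no header: all reads, then reads ending CCA, then reads ending CC. That order was inferred from the methods and from the proline values. All values were whole numbers, and reads with an end never exceeded all reads on a line. No count model was fitted, because a check of the unit made beforehand could not read the colon-separated format. MEF files also list 2 yeast tRNA sequences, which were left out, as were reads on no tRNA gene.

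Counts were summed by gene, isoacceptor and amino acid. limma 3.58.1 in R 4.3.3 was fitted within each cell type to log2((CCA + 0.5)/(CC + 0.5)), to the same ratio of reads with neither end to reads with an end, and to log2 RPM (reads per 1000000 tRNA reads) after TMM scaling, over all features averaging 50 or more reads, with Benjamini-Hochberg adjustment and a threshold of 0.05. In the MEF charging fits and in the MEF read share fit of isoacceptors, limma pooled the spread fully, so all isoacceptors share an SE. Differences between isoacceptors were tested by exact permutation (scipy 1.17.1). The fits were run on simulated data in which each isoacceptor varied independently. Those data held no shift common to a library, so they did not test the fits under library-wide differences such as those in MEF. Genes were named where they had at least 50 reads with an end on average, and the others by count and range. For likeness the 3 closest isoacceptors were named. The members and lists were chosen with earlier results of these data known. Replicate numbers follow the sample titles, which for NTERT differ from the numbers in the names of the files. tRNA-like folds needed at least 6 pairs in the acceptor stem, 3 in the D stem, 4 in the anticodon stem and 5 in the T stem. Chromosomes 8 and Y, chrM and unplaced contigs were not searched.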

Additional observations from a re-analysis of the deposited data

How the results depend on the processing

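Log2 differences are given for the threonine sum and for AGT, CGT and TGT. With the library median subtracted, MEF charging turned to -0.21 for the sum, -0.30 for AGT and -0.46 for CGT, and NTERT charging to 0.30 for the sum and 0.052 for CGT. The replicate block, which treats equal numbers as pairs, gave the same values when combined with the subtraction. Alone it kept the call of each threonine isoacceptor and of the sum. The threonine genes called in MEF were then 9 for reads with neither end and 3 for read share, in place of 8 and 2. It brought the NTERT read share of the sum from an adjusted p of 0.574 to 0.0641 by limma. Whether equal numbers mark paired libraries is not settled, since the same-number correlations ran from -0.49 to 0.59. For reads with neither end in MEF, the subtraction ended the calls of the sum (-0.55), AGT (-0.86), CGT (-0.34) and TGT (-0.89) and left 0 genes called. With no minimum CGT lost its call (-1.41, adjusted p = 0.0566) and 0 genes were called. The TGT read share in MEF lost its call with library totals (0.92), median-of-ratios factors (0.94), no minimum (1.07), reads with an end only (0.93) and, added after seeing the data, TMM factors from single genes (1.01). The called genes fell from 2 to 0 with library totals, no minimum and reads with an end only. The 7 isoacceptors called for MEF read share became 1 with library totals, median-of-ratios or gene-based factors, 3 with end reads only and 4 with no minimum. The 9 called for MEF charging became 3 with the median subtracted and 0 with the block, and the 38 called for MEF reads with neither end became 0 with the median subtracted.

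Leaving out 1 library at a time gave these ranges. In MEF the isoacceptors called were 0 to 22 for charging, 24 to 38 for reads with neither end and 1 to 9 for read share, and in NTERT 0 to 1 for read share. MEF charging was 0.75 to 1.63 for the sum and 0.88 to 1.91 for TGT, with 0 to 2 genes called (2 without control or HF replicate 3). NTERT charging was -0.36 to 0.17 for the sum, -0.41 to 0.00094 for AGT, -0.26 to 0.11 for CGT and -0.30 to 0.32 for TGT. MEF reads with neither end were -1.88 to -0.69 for CGT, which lost its call without control replicate 2 or HF replicate 2, with 0 to 9 genes called. NTERT reads with neither end were -1.62 to 0.0079 for the sum, -0.96 to 0.45 for AGT and -1.56 to 0.60 for CGT. MEF read share was 0.45 to 1.03 for AGT, -0.0059 to 0.32 for CGT and 0.52 to 1.27 for TGT, which kept its call only without HF replicate 2, with 0 to 1 genes called. NTERT read share was -0.22 to 0.43 for CGT, 0.07 to 0.59 for AGT and 0.27 to 0.96 for TGT. MEF AGT minus TGT was -0.19 to 0.043. The change of AGT minus CGT with treatment was -0.037 to 0.31 in MEF and -0.25 to 0.042 in NTERT, and that of CGT minus TGT in NTERT was -0.20 to 0.037. The cause of these changes was not tested. Of 452 alternative values, 388 kept their direction and side of the threshold or, for counts of genes called, stayed close to the main count. The permutation values for the treatment effect on isoacceptor differences could not cross the threshold in any setting. With 5 libraries the sign-flip test cannot go below 0.0625. Tests with count models were not run, since the check of the unit made beforehand could not read the format. Depth limits the rare genes most.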
